A study of Oryza sativa with 6 samples.

Results

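The class III peroxidase genes of rice roots were followed under cadmium with and without Fo10. Members were the gene models with a BGIOSGA identifier that the deposited table describes as "Peroxidase", alone or with a number. This gave 143 of the 42031 features of the table. Of these, 142 are described as "Peroxidase" with no further word and 1 as "Peroxidase 2", and every description cites a protein database. Ascorbate peroxidases, glutathione peroxidases and peroxiredoxins were not members. The description does not state the class, so class III membership rests on the database family name.

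Both groups were roots of wild-type rice (Oryza sativa) from a controlled greenhouse, and both received 10 µM cadmium. The group called Cd (3 libraries) had no Fo10, and the group called Fo+Cd (3 libraries) also had 0.5% Fo10. What Fo10 is, how old the plants were and how long they were treated is not given in the labels. No library without cadmium is among the samples, so the values describe Fo10 under cadmium and not cadmium itself. Whether the 3 replicates of a group came from separate cultures is not stated, so the p-values speak of the spread among these libraries only, which may be technical.

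Class III peroxidases are haem enzymes that plants secrete into the cell wall and the vacuole. They use hydrogen peroxide to oxidise phenolic compounds, and the radicals they form couple into lignin and suberin or cross-link wall proteins and polysaccharides. In roots they take part in wall stiffening, in xylem lignification and in the lignin ring of the Casparian strip, the barrier of the endodermis. Some members can also produce reactive oxygen species, and the family as a whole is known to respond to metals, wounding and pathogens. In rice the genes carry the numbered names prx, and the table gives such a name to 7 members.

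The values were the authors' TPM (a transcript level scaled by length and by the library's total), and the depth behind them is unknown. Shoot tissue markers (25 chlorophyll-binding, Rubisco small subunit and photosystem genes) summed to 23.1 to 26.7 TPM in the Cd libraries and 23.4 to 31.4 TPM in the Fo+Cd libraries, and 7 of the 25 were listed at 0 in every library. A gene described as a silicon efflux transporter (BGIOSGA011605), a root function, was at 642 to 837 TPM in Cd and 730 to 1120 TPM in Fo+Cd. A gene described as an iron-phytosiderophore transporter (BGIOSGA005930), also a root function, was at 83.8 to 128 TPM in Cd and 155 to 196 TPM in Fo+Cd. Its groups did not overlap, and neither gene passed in limma (adjusted p = 0.445 and 0.0783). Their part in the peroxidase results was not tested. In whole roots, fewer cells of a type and less RNA per cell cannot be told apart. Members of a large gene family can share reads, so the value of a single member is uncertain.

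The peroxidase family was mostly expressed in these roots. Between 111 and 115 members reached 1 TPM in a library, and between 82 and 89 reached 10 TPM. The test used the 114 members with 1 TPM or more in at least 3 libraries. Of the 29 others, 12 were listed at 0 in all 6 libraries and the other 17 never exceeded 1.93 TPM. The untested member nearest the limit, by its third-highest value of 0.94 TPM, was BGIOSGA007858, at 0.39, 0.43 and 0.94 TPM in Cd and 0.94, 0.19 and 1.01 TPM in Fo+Cd. The tested member with the lowest mean was BGIOSGA007861, at 0.13, 0 and 1.23 TPM in Cd and 1.43, 0.36 and 2.44 TPM in Fo+Cd.

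Fo+Cd roots had lower transcript levels than Cd roots for more peroxidase genes than they had higher ones. Of the 114 tested members, 9 fell and 2 rose (limma on log2(TPM + 1), Benjamini-Hochberg adjusted p under 0.05 over 21166 features). The 9 falls are 7.89% of the tested members, against 0.723% of all tested features called lower. The 2 rises are 1.75%, against 1.72% of all tested features called higher, so the share of rises was near the background. Among these rises, prx15 (BGIOSGA003400) needed a Fo+Cd library, where it is high, to be tested at all. In either direction 9.65% of the members were called, against 2.45% of all features. The other 103 members did not pass the test. The number of lower calls was 3 without Cd replicate 3, 3 without Fo+Cd replicate 3 and 4 without Fo+Cd replicate 2, and 1 member was called higher without Cd replicate 3 or Fo+Cd replicate 2. Calls over all features also went down, from 518 to 240 without Cd replicate 3, 189 without Fo+Cd replicate 3 and 253 without Fo+Cd replicate 2.

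Over all 114 tested members, called or not, the log2 fold change was below 0 for 81 and above 0 for 33. Among the 103 not called it was below 0 for 72 and above 0 for 31, with a median of -0.15. The median of all 114 was -0.20 (quartiles -0.51 and 0.02), against a median of 0.00 over all tested features (quartiles -0.17 and 0.14). Of the 114 members, 77 lay within 0.5 on the log2 scale, 29 were at -0.5 or lower and 8 at 0.5 or higher. For all 21166 tested features these counts were 18570, 1512 and 1084. A smaller part of the members than of all features therefore lay within 0.5. Without any adjustment, p was under 0.05 for 33 of the 114 members in the lower direction (28.9%) and 8 in the higher (7.02%), called ones included. Among the 103 not called these were 24 lower and 6 higher. For all features the shares at that level were 8.06% lower and 7.35% higher.

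**Figure D1:**
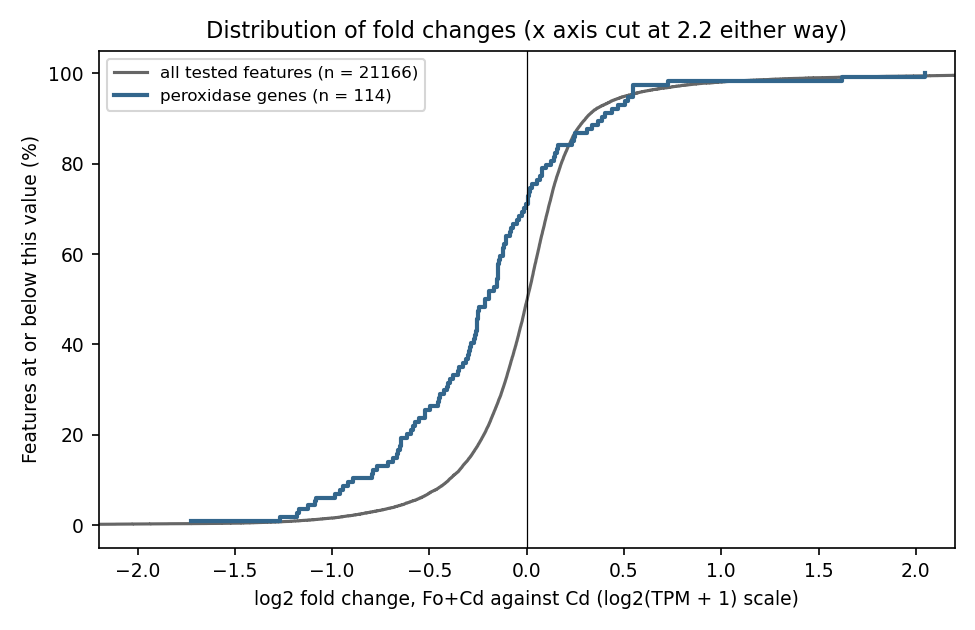
Cumulative share of features (%, vertical axis) against the log2 fold change of Fo+Cd over Cd (horizontal axis, log2(TPM + 1) scale), for 114 peroxidase genes and for all 21166 tested features. The peroxidase curve lies to the left at its middle, with a median of -0.20 against 0.00, and both curves meet above 0.

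The groups were fully apart in 38 tested members. In 30 of them every Fo+Cd library was below every Cd library, which is 26.3% of the members against 10.0% of all tested features. In 8 every Fo+Cd library was above every Cd library, 7.02% of the members against 11.3% of all tested features. The highest of the 6 values came from a Cd library in 75 of the 114 members, and in 42 of these from Cd replicate 3. The lowest value came from a Fo+Cd library in 83 members, spread over replicates 1, 2 and 3 (27, 33 and 23 members). Cd replicate 3 therefore carries much of the upper range of these members, and their median log2 fold change without it was -0.17. The highest and lowest libraries were not counted over all features, so whether this is particular to the peroxidases is not known.

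The largest fall was that of prx46 (BGIOSGA012711). It was at 49.7, 67.8 and 73.3 TPM in the Cd libraries and at 19.9, 17.5 and 17.6 TPM in the Fo+Cd libraries. Every Fo+Cd value was far below every Cd value. The means were 63.6 ± 12.3 and 18.3 ± 1.31 TPM (SD, n = 3 each), which is 3.47-fold lower in Fo+Cd (log2 fold change -1.72, SE 0.15, limma adjusted p = 0.00173). Its call held without any single library (adjusted p 0.00175 to 0.0167).

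BGIOSGA012714, whose identifier follows closely on that of prx46, had the smallest adjusted p of the family. It was at 57.4, 69.5 and 57.6 TPM in Cd and at 26.3, 26.1 and 27.5 TPM in Fo+Cd. The Fo+Cd libraries lay within a narrow band well under the Cd range (log2 fold change -1.17, SE 0.10, limma adjusted p = 0.00147). The call held without any single library (adjusted p 0.0038 to 0.0141).

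The gene prx130 (BGIOSGA034670) was the most even of the falls within Cd. It was at 50.5, 50.4 and 52.5 TPM in Cd and at 21.4, 18.8 and 26.5 TPM in Fo+Cd. The groups were far apart, with more spread under Fo10 than without it (means 51.2 ± 1.19 and 22.2 ± 3.95 TPM, SD, n = 3 each; log2 fold change -1.18, SE 0.13, limma adjusted p = 0.00495). This call also held without any single library (adjusted p 0.00631 to 0.0313).

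A second set of named peroxidases fell from a lower level. The gene prx20 (BGIOSGA005230) was at 33.5, 24.2 and 27.3 TPM in Cd and at 13.6, 13.5 and 10.3 TPM with Fo10 (log2 fold change -1.12, SE 0.16, limma adjusted p = 0.0142). The gene prx127 (BGIOSGA033359) was at 21.6, 19.4 and 23.6 TPM in Cd and at 12.1, 11.0 and 8.78 TPM with Fo10 (log2 fold change -0.96, adjusted p = 0.0167). The gene prx105 (BGIOSGA023841) was at 19.3, 15.7 and 20.6 TPM in Cd and at 11.1, 8.04 and 8.48 TPM with Fo10 (log2 fold change -0.94, adjusted p = 0.0277). In these 3 genes the groups did not overlap, which adds no support to calls made on the same values. The call on prx20 was lost without Cd replicate 3 (adjusted p = 0.0567) or Fo+Cd replicate 3 (0.0556). Those on prx127 and prx105 were each lost without replicate 1 or 3 of Cd or without replicate 2 or 3 of Fo+Cd (0.0561 to 0.0752 for prx127 and 0.0872 to 0.122 for prx105).

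Smaller falls were seen in 3 members without a gene name. BGIOSGA014207 was at 71.2, 86.2 and 80.3 TPM in Cd and at 48.4, 52.2 and 50.1 TPM with Fo10 (log2 fold change -0.64, limma adjusted p = 0.018). BGIOSGA036874 was at 35.7, 30.9 and 37.9 TPM in Cd and at 21.5, 23.5 and 20.4 TPM with Fo10 (log2 fold change -0.65, adjusted p = 0.0259). BGIOSGA020119 was at 31.1, 37.3 and 36.9 TPM in Cd and at 21.3, 22.3 and 24.0 TPM with Fo10 (log2 fold change -0.61, adjusted p = 0.0288). Again no Fo+Cd value reached the lowest Cd value. These calls were close to the threshold: BGIOSGA014207 lost its call without Cd replicate 3 or any one Fo+Cd replicate (0.0528 to 0.0947), BGIOSGA036874 when any library except Cd replicate 2 was left out (0.0565 to 0.122), and BGIOSGA020119 when any except Cd replicate 1 was (0.059 to 0.126).

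The 2 rises came from members with consecutive identifiers. The gene prx15 (BGIOSGA003400) was at 1.81, 1.63 and 0.78 TPM in Cd and at 13.8, 7.4 and 6.46 TPM in Fo+Cd. It was scarcely expressed under cadmium alone, at a mean of 1.41 TPM. Its mean TPM was 6.56-fold higher with Fo10 (log2 fold change 2.05 on the log2(TPM + 1) scale, SE 0.30, limma adjusted p = 0.0187). It reached 1 TPM in Cd replicates 1 and 2 but not in Cd replicate 3. To pass the filter on low values prx15 therefore also needed a Fo+Cd library, where it is high. Its call is thus not independent of the filter. Fo+Cd replicate 1 was the highest of its group by a wide margin. Its call was lost without Cd replicate 3 (adjusted p = 0.0591) or Fo+Cd replicate 2 (0.0594).

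BGIOSGA003401 was at 3.51, 5.63 and 5.76 TPM in Cd and at 17.6, 17.1 and 16.5 TPM in Fo+Cd. The Fo+Cd libraries were close together and 3.43-fold above the Cd mean (means 4.97 ± 1.26 and 17.1 ± 0.586 TPM, SD, n = 3 each; log2 fold change 1.62, SE 0.17, limma adjusted p = 0.00474). The call held without any single library (adjusted p 0.00492 to 0.0329).

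**Figure D2:**
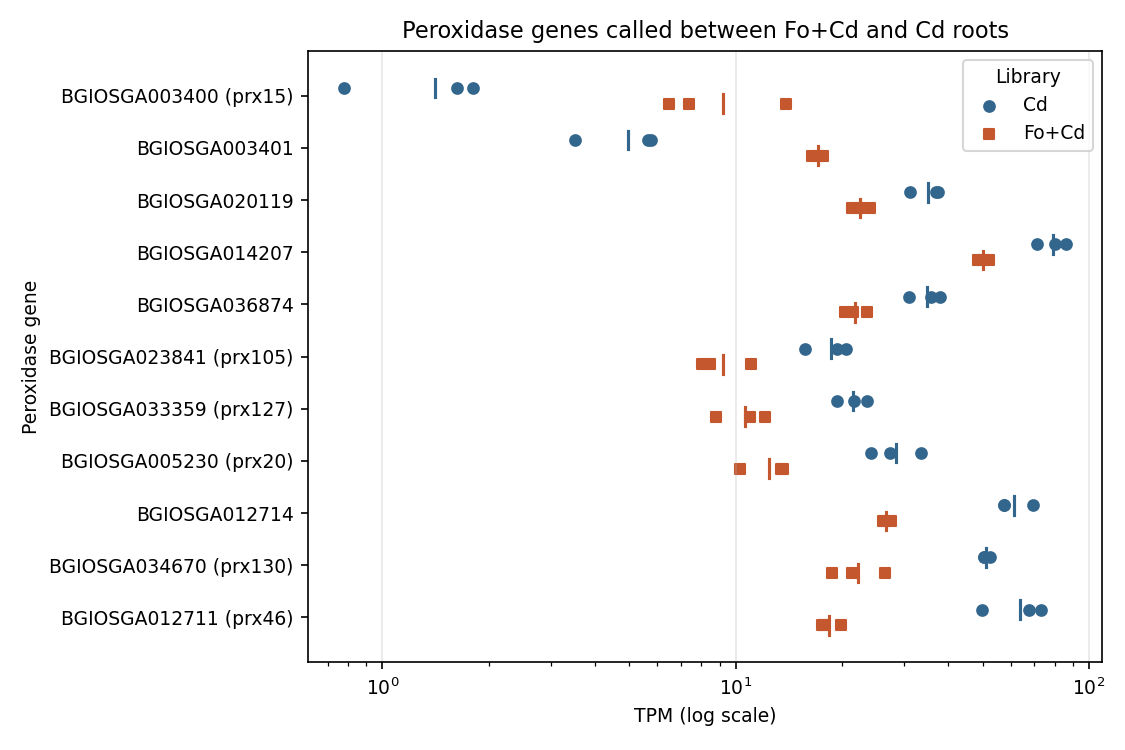
TPM in each library (log-scaled horizontal axis) for the 11 called peroxidase genes, with circles for the 3 Cd libraries, squares for the 3 Fo+Cd libraries and vertical bars at the group means. The circles and squares of a gene never overlap, and prx15 and BGIOSGA003401 are the 2 genes with the squares to the right. The genes were chosen by a call on these same values, so their separation adds no support.

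A gene name in the table went together with being called, which bears on how the named members are read. Of the 7 named members, 6 were called, and the other, PRX112, was not. Of the 107 tested members without a name, 5 were called (4 lower and 1 higher), or 4.67%. The same holds over the whole table, where 106 of 433 tested gene models with a name were called, against 399 of 20631 without one. A prx name is therefore not independent of the result. Among the members without a name the median log2 fold change was -0.17.

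PRX112 (BGIOSGA026390), the member described as "Peroxidase 2", was at 106, 97.7 and 97.1 TPM in Cd and at 82.9, 90.7 and 88.8 TPM in Fo+Cd. All Fo+Cd libraries were below all Cd libraries, yet the difference did not pass (log2 fold change -0.20, unadjusted p = 0.0483, limma adjusted p = 0.319). PRX112 was also the 1 name of the 7 found in RefSeq's gene list for the japonica assembly ASM3414082v1. There it lies on chromosome 7, and among the nearest genes, 3 to each side, 2 also carry the synonym peroxidase.

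Of the 11 members called, 10 were of middle abundance. Of the 59 tested members with a mean of 10 to 100 TPM over all libraries, 9 fell and 1 rose, or 15.3% lower and 1.69% higher. Of the 29 members at 100 TPM or more none passed in limma, while 7 lower (24.1%) and 4 higher (13.8%) had an unadjusted p under 0.05. Of the 26 below 10 TPM 1 rose (3.85%), which was prx15, a gene that needed a Fo+Cd library to pass the filter. For all tested features, whatever their abundance, the shares called were 0.723% lower and 1.72% higher, and those at an unadjusted p under 0.05 were 8.06% lower and 7.35% higher. The median log2 fold change was -0.29 in the middle class, -0.15 in the most abundant and 0.00 in the least abundant.

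**Figure D3:**
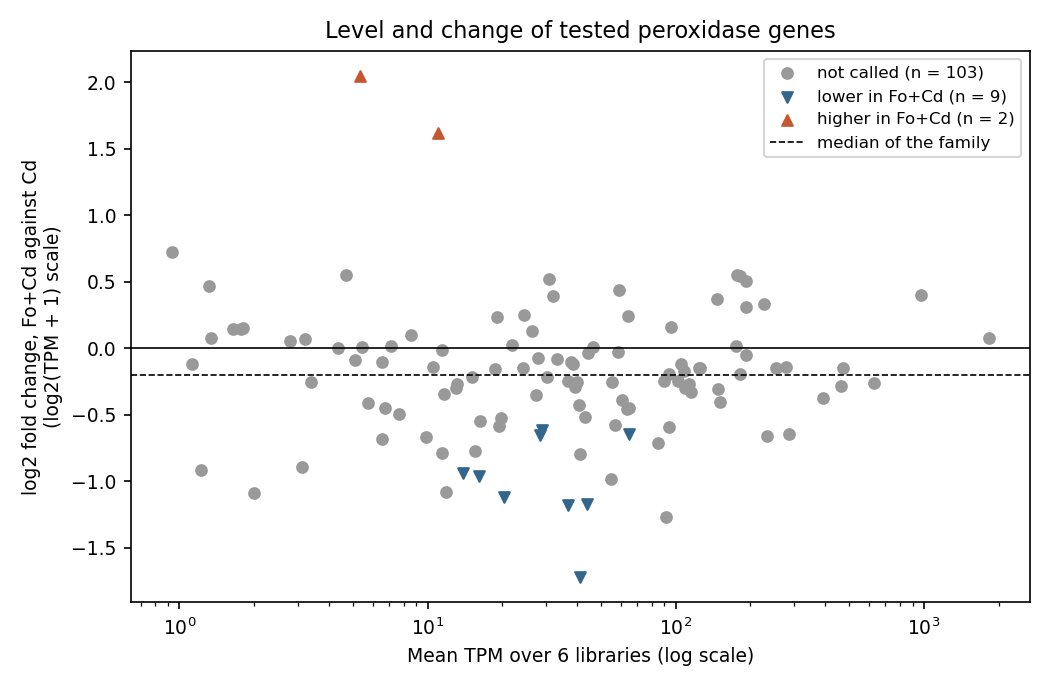
Log2 fold change of Fo+Cd over Cd (vertical axis, log2(TPM + 1) scale) against mean TPM over the 6 libraries (log-scaled horizontal axis) for the 114 tested peroxidase genes. Downward triangles mark the 9 genes called lower, upward triangles the 2 called higher, and the dashed line the family median of -0.20.

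The most abundant peroxidase gene, BGIOSGA025004, did not separate the groups. It was at 1743, 1860 and 1721 TPM in Cd and at 1700, 2138 and 1805 TPM with Fo10 (log2 fold change 0.08, SE 0.11, limma adjusted p = 0.796). This gene alone held 15.5% ± 0.971 of the summed peroxidase TPM in Cd and 17.5% ± 1.62 with Fo10 (SD, n = 3 each; two-sided exact permutation p = 0.2).

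The next gene in abundance, BGIOSGA014042, had higher values with Fo10. It was at 824, 870 and 826 TPM in Cd and at 1071, 1166 and 1090 TPM in Fo+Cd. The groups were clearly apart (1.32-fold, log2 fold change 0.40, SE 0.09), but the adjusted p of 0.0729 missed the threshold. With 269 TPM between the group means it had the largest rise in TPM of any member.

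Several other abundant members had lower values with Fo10 without passing. BGIOSGA012707 was at 311, 382 and 352 TPM in Cd and at 184, 255 and 231 TPM with Fo10 (log2 fold change -0.65, limma adjusted p = 0.0775). BGIOSGA003201 was at 456, 434 and 445 TPM in Cd and at 352, 347 and 329 TPM with Fo10 (log2 fold change -0.38, adjusted p = 0.0699). BGIOSGA021076 was at 298, 261 and 296 TPM in Cd and at 135, 233 and 182 TPM with Fo10 (log2 fold change -0.66, adjusted p = 0.156). In all 3 the groups did not overlap, and Fo+Cd replicate 1 was the lowest library in BGIOSGA012707 and BGIOSGA021076.

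In the remaining 5 of the 10 most abundant members the groups overlapped. These were BGIOSGA001845 (means 685 ± 35.1 and 575 ± 76.7 TPM in Cd and Fo+Cd), BGIOSGA020118 (497 ± 42.0 and 449 ± 46.8 TPM), BGIOSGA018760 (509 ± 44.5 and 422 ± 75.4 TPM), BGIOSGA026387 (293 ± 60.03 and 264 ± 31.1 TPM) and BGIOSGA019131 (266 ± 36.9 and 239 ± 19.8 TPM; SD, n = 3 each). All 5 had the lower mean in Fo+Cd, and their limma adjusted p ranged from 0.353 to 0.742.

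Some members with large differences between the group means did not pass, and in several of them a library of one group stood near the other group. BGIOSGA010776 was at 99.8, 120 and 167 TPM in Cd and at 33.4, 64.8 and 64.0 TPM with Fo10 (log2 fold change -1.27, SE 0.31, limma adjusted p = 0.111). Its groups were apart, with a wide spread in both. BGIOSGA007853 was at 92.3, 35.0 and 98.2 TPM in Cd and at 43.5, 29.8 and 30.3 TPM with Fo10 (log2 fold change -0.98, adjusted p = 0.332). BGIOSGA007854, with the next identifier, was at 22.9, 6.78 and 21.6 TPM in Cd and at 5.66, 6.32 and 8.07 TPM with Fo10 (log2 fold change -1.08, adjusted p = 0.315). In both of these Cd replicate 2 lay at the level of the Fo+Cd libraries, and without it both passed (limma adjusted p = 0.0144 for BGIOSGA007853 and 0.00771 for BGIOSGA007854). That fit called 726 features, against 518 with all libraries. Leaving out the library that differs from its group favours a pass, so these 2 passes lend no support to a fall.

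BGIOSGA001841 showed the mirror case, with Fo+Cd replicate 1 close to the Cd libraries. It was at 49.9, 47.8 and 57.0 TPM in Cd and at 44.2, 24.1 and 23.3 TPM with Fo10 (log2 fold change -0.80, limma adjusted p = 0.183). Without Fo+Cd replicate 1 the limma adjusted p was 0.0117. Here too the library left out was the one that differed from its group, so that value lends no support to a fall. BGIOSGA021078 (means 14.7 ± 3.65 and 8.25 ± 3.25 TPM in Cd and Fo+Cd) had groups that overlapped, and BGIOSGA025758 (19.6 ± 4.08 and 11.3 ± 3.68 TPM) had groups that did not (SD, n = 3 each). Their log2 fold changes were -0.79 and -0.77, and neither passed (adjusted p = 0.257 and 0.198).

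Summed over all 143 members, peroxidase transcripts made up 11220, 11297 and 11847 TPM in the Cd libraries and 10626, 11119 and 10390 TPM in the Fo+Cd libraries. Each Fo+Cd sum was below each Cd sum, the nearest pair being 11119 and 11220 TPM. The means were 11455 ± 342 and 10712 ± 372 TPM (SD, n = 3 each), a difference of -743 TPM or -6.49% (two-sided exact permutation p = 0.1, the smallest that 3 against 3 libraries can give). As a share of the TPM of all gene models the family held 1.21% ± 0.0321 in Cd and 1.13% ± 0.0392 with Fo10 (exact permutation p = 0.1).

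The 3 most abundant members summed to 3300 ± 88.5 TPM in Cd and 3565 ± 220 TPM with Fo10. Without them the family sum was 8155 ± 367 TPM in Cd and 7146 ± 180 TPM with Fo10, a difference of -12.4% (SD, n = 3 each; exact permutation p = 0.1 for both sums). The 9 called falls accounted for a change from 394 to 194 TPM, and the 2 rises for one from 6.37 to 26.3 TPM, so the called genes are a small part of the family's transcripts.

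**Figure D4:**
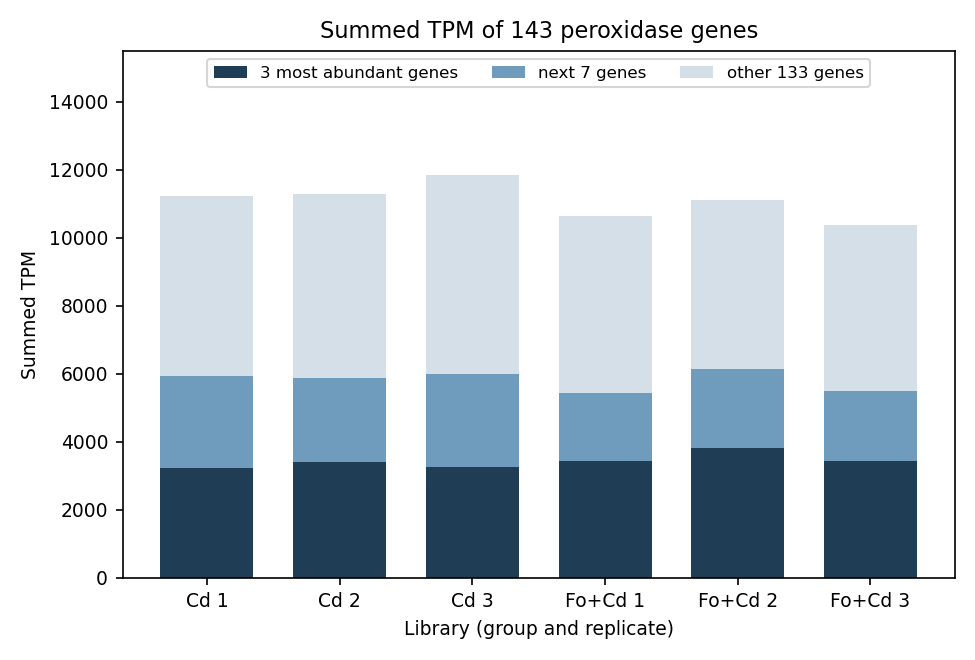
Summed TPM (vertical axis, from 0) of the 143 peroxidase genes in each of the 6 libraries, split into the 3 most abundant genes, the next 7 and the other 133. The Cd bars reach 11220 to 11847 TPM and the Fo+Cd bars 10390 to 11119 TPM, while the darkest part is taller in the Fo+Cd bars.

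Many members carry identifiers that follow each other closely. With identifier numbers at most 5 apart taken as a run, 14 runs of 3 or more members held 68 of the 143 genes, 57 of them tested. Of these 57, 3 were called lower (5.26%) and 2 higher (3.51%). The shares were 7.89% and 1.75% of all tested members, and 0.723% and 1.72% of all tested features. The table gives no coordinates, so a run describes the numbering and not a measured position. Members of a run may also be similar enough to share reads, and sequence likeness was not tested. Runs were set up after the values were known and are given as a description only.

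The run from BGIOSGA012703 to BGIOSGA012716 was the largest by number of members. It had 9 members, 7 of them tested, with 2 called lower (prx46 and BGIOSGA012714) and none higher. Its log2 fold changes went from -1.72 for prx46 to 0.44 for BGIOSGA012706, with 4 below 0 and 3 above. The summed level of the run went from 732 TPM in Cd to 556 TPM in Fo+Cd.

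The run from BGIOSGA003395 to BGIOSGA003403 held both called rises, of which prx15 needed a Fo+Cd library to be tested. Of its 5 tested members 4 had log2 fold changes above 0. Beside prx15 and BGIOSGA003401, BGIOSGA003403 was at 57.9, 61.0 and 58.1 TPM in Cd and at 69.6, 71.8 and 68.7 TPM in Fo+Cd. Its groups were apart with little spread, but the change was small and did not pass (log2 fold change 0.24, SE 0.07, limma adjusted p = 0.173). The summed level of the run went from 94.2 to 127 TPM.

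The run from BGIOSGA014038 to BGIOSGA014042, which includes the second most abundant peroxidase gene, had 4 of 5 log2 fold changes above 0 (median 0.33). Its sum went from 1218 TPM in Cd to 1620 TPM in Fo+Cd, with no member called. By contrast, all 6 members of the run from BGIOSGA019131 to BGIOSGA019138 had log2 fold changes below 0 (-0.52 to -0.15), again with none called. BGIOSGA019136 of that run shares its database protein entry with BGIOSGA019144. BGIOSGA019136 was at 181, 121 and 192 TPM in Cd and 155, 113 and 126 TPM in Fo+Cd, whereas BGIOSGA019144 was listed at 0 throughout.

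**Figure D5:**
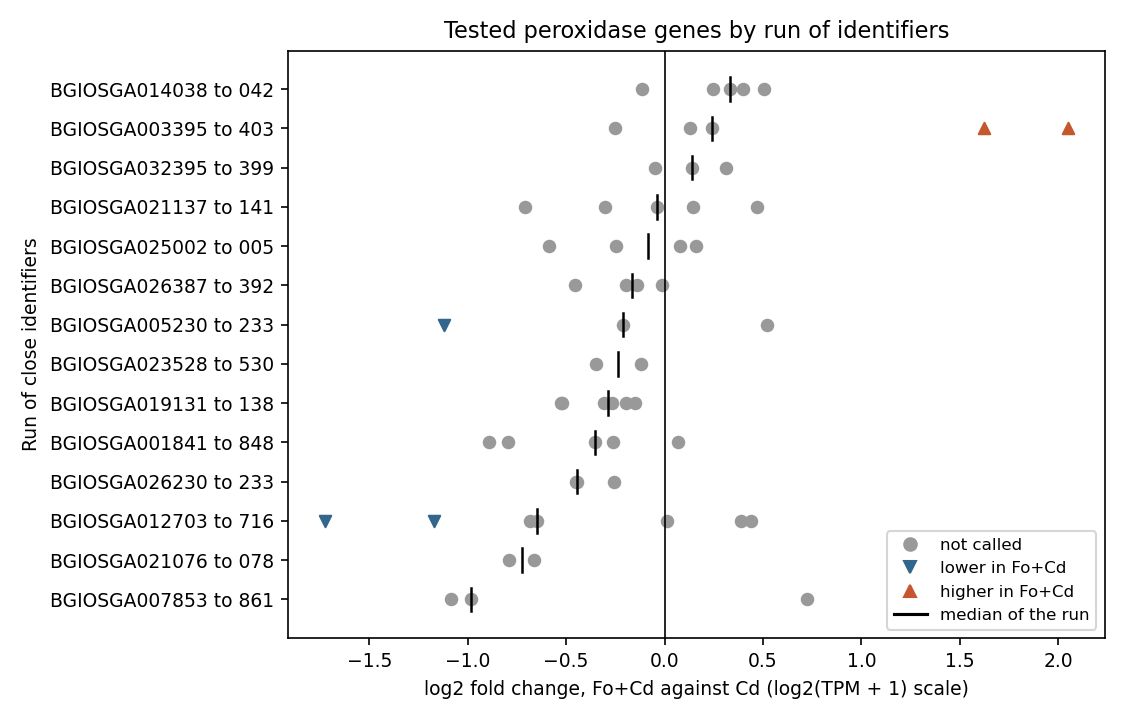
Log2 fold change of Fo+Cd over Cd (horizontal axis, log2(TPM + 1) scale) of the 57 tested peroxidase genes that fall in the 14 runs of close identifiers, 1 row per run, with a vertical bar at the run's median. Triangles mark called genes: both rises sit in the run starting at BGIOSGA003395, and 2 of the falls in the run starting at BGIOSGA012703.

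Class III peroxidases need hydrogen peroxide and phenolic substrates, so the genes around them were counted in the same fit. Among 19 tested genes for making hydrogen peroxide or superoxide (superoxide dismutases, germin-like proteins, amine and polyamine oxidases, a respiratory burst oxidase), 3 rose and none fell (15.8% higher against 1.72% of all tested features, median log2 fold change 0.24). All 3 were germin-like protein genes, a group of wall proteins some of which have superoxide dismutase activity: GLP8-5 (BGIOSGA028111, 5.45 ± 0.467 to 16.4 ± 0.678 TPM), OsGLP4-1 (BGIOSGA014338, 10.7 ± 4.2 to 60.7 ± 9.44 TPM) and GLP8-8 (BGIOSGA028114, 66.9 ± 13.5 to 135 ± 15.3 TPM; SD, n = 3 each; limma adjusted p = 0.000947, 0.00738 and 0.0222). Their descriptions cite no database, and of the tested genes so described 206 of 226 were called, so these rises are not independent of the description. GLP8-5 was called whichever library was left out, and OsGLP4-1 was lost without Fo+Cd replicate 1 (adjusted p = 0.0517). GLP8-8 kept its call only when Cd replicate 2 was the library left out (otherwise 0.0545 to 0.0877).

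Among 14 tested genes for removing hydrogen peroxide, 1 rose and 2 fell. These are 7.14% higher against 1.72% of all tested features, and 14.3% lower against 0.723%. The catalase gene CATA1 (BGIOSGA007252) rose from 31.6 ± 3.82 to 80.9 ± 10.9 TPM (log2 fold change 1.32, limma adjusted p = 0.00296). Both falls were 1-Cys peroxiredoxins, thiol enzymes that reduce peroxides. 1-CysPrxA (BGIOSGA026225) was at 67.9, 86.2 and 97.7 TPM in Cd and at 30.8, 45.9 and 40.0 TPM with Fo10 (log2 fold change -1.09, adjusted p = 0.0299). Peroxiredoxin B (BGIOSGA026226) was at 325, 414 and 421 TPM in Cd and at 159, 235 and 191 TPM with Fo10 (log2 fold change -0.99, adjusted p = 0.0317). In both genes the lowest value of all was that of Fo+Cd replicate 1, and the groups did not overlap. Neither peroxiredoxin was called without replicate 2 or 3 of Cd or replicate 1 or 3 of Fo+Cd (adjusted p 0.06 to 0.129), without a filter on low values (0.0573 and 0.0598) or with plain empirical Bayes (0.0505 and 0.0533). In each of these fits the list had 0 lower calls.

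Of 9 tested genes of monolignol synthesis, which supplies the lignin precursors that peroxidases oxidise, 1 was called, in the higher direction (11.1% against 1.72% of all tested features). This was CAD7 (BGIOSGA017101), a cinnamyl alcohol dehydrogenase described without a source. It was at 0.7, 0.35 and 0.65 TPM in Cd and at 2.92, 4.56 and 3.95 TPM with Fo10, a log2 fold change of 1.61 (limma adjusted p = 0.0095). CAD7 passed the filter on low values only through the Fo+Cd libraries, where it is high, so it had to differ to be tested and its call supports nothing further. Without any one Fo+Cd replicate it no longer reached the filter.

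Of 36 tested laccases and dirigent proteins, which oxidise monolignols and guide their coupling, 2 rose and 1 fell. These are 5.56% higher against 1.72% of all tested features, and 2.78% lower against 0.723%. The median log2 fold change was -0.24. The dirigent gene BGIOSGA024968 rose from 22.6 ± 3.12 to 48.5 ± 3.01 TPM (SD, n = 3 each; limma adjusted p = 0.00459), and its call held without any single library. The laccase gene BGIOSGA019397 fell from 36.4 ± 4.02 to 22.0 ± 0.373 TPM (adjusted p = 0.0158), a call that held only when Cd replicate 2 was the library left out (otherwise 0.0568 to 0.0806). The laccase gene BGIOSGA019394 went from 14.4 ± 1.32 to 23.3 ± 3.16 TPM and was called by a narrow margin (adjusted p = 0.0487). Its call was lost whichever library was left out (0.0592 to 0.174). It was also lost with a pseudocount of 0.1 TPM, with no filter or a filter on the mean, with median centring or quantile normalization, and with plain empirical Bayes (0.0515 to 0.0802).

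Of 43 tested Casparian strip and suberin genes (CASP-like proteins and 3-ketoacyl-CoA synthases) none was called in limma, while 9 lower (20.9%) and 3 higher (6.98%) had an unadjusted p under 0.05, against 8.06% and 7.35% of all tested features. Their median log2 fold change was -0.19. Without Cd replicate 1 there was 1 lower call, and without Cd replicate 2 there were 2 lower and 1 higher. Those fits called 310 and 726 features in all, against 518 with all libraries.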

How the data were processed

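RNA sequencing of rice roots gave 6 libraries, 3 per group. Per the labels' protocols, RNA was extracted with TRIzol and made into stranded mRNA libraries. For the aligner, the quantification program and the genome build: not given in the sources used here. The authors deposited TPM values, recognised from totals of 963281 to 966767 per library; 0 other columns of sample values were left unmapped, and the authors' group means were not used. TPM keeps no read counts, so no counting interval was computed.

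Features that reached 1 TPM in 3 libraries or more were fitted on log2(TPM + 1) with limma 3.58.1 in R 4.3.3 (trend and robust empirical Bayes, no covariate). P-values were adjusted by Benjamini-Hochberg over all 21166 features and called at 0.05. This scale understates the fold change of low genes. The procedure was tested on simulated data, with noise independent between genes and changes planted only in genes that were not low. The planted changes were also larger than the smaller falls called here. That test therefore does not cover low genes, such small falls or members that share reads. Sums per library were compared by exact permutation tests (scipy 1.17.1, Python 3.11.15). Members and lists were chosen with earlier results of these data known. Named members are all called ones, the 10 most abundant, and the 6 uncalled with the largest change and a mean of 10 TPM or more in one group; the run members, PRX112 and those at the filter were named after their values were seen. Lists were matched by the start of the description. The root marker names looked for (OsLsi1, OsLsi2, OsHMA3, RCc2, RCc3 and OsYSL15) were not in the table, so genes described as a silicon efflux transporter and an iron-phytosiderophore transporter were used.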

Additional observations from a re-analysis of the deposited data

How the results depend on the processing

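The same 9 falls and 2 rises were called with pseudocounts of 0.1 and 0.5 TPM, with a filter on the mean, and with median centring or quantile normalization. Without a filter 8 fell (prx105 was lost), and with plain empirical Bayes 8 fell (BGIOSGA020119 was lost). Leaving out 1 library gave 3 to 11 lower calls, 1 to 2 higher calls and 189 to 726 calls over all features. The fewest lower calls, 3, came without Cd replicate 3 or Fo+Cd replicate 3, and 4 came without Fo+Cd replicate 2. prx46, prx130, BGIOSGA012714 and BGIOSGA003401 were called in every one of these fits. The family median stayed between -0.26 and -0.16 over all alternatives, and the difference in summed TPM between -947 and -547 TPM with 1 library left out (exact permutation p = 0.2, the smallest then possible). With 1 library left out the log2 fold change ranged from -0.018 to 0.15 for BGIOSGA025004 and from -0.30 to 0.0034 for BGIOSGA026387, so their sign is not settled.

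With the replicate number as a block, 8 members were called lower and 2 higher, of 353 features called; 6 of the 8 were shared with the reported calls, BGIOSGA010776 and BGIOSGA012707 were added, and BGIOSGA020119, prx127 and BGIOSGA036874 were lost. Deviations of same-numbered libraries from their group means had correlations of -0.03, 0.08 and 0.07. Those of differently numbered libraries went from -0.12 to 0.07. Deviations from a mean of 3 libraries depend on each other, so these values cannot decide whether the numbers pair the samples. Under the block 2 Casparian strip and suberin genes were called lower, while GLP8-8 (adjusted p = 0.0857), CAD7 (0.05001) and the laccase genes BGIOSGA019394 (0.0653) and BGIOSGA019397 (0.0516) were not called. Without a filter on low values 2 laccase and dirigent genes were called lower instead of 1, of 392 features called. With median centring or quantile normalization 2 genes for hydrogen peroxide removal were called higher instead of 1, of 498 and 509 features called. The unknown depth sets the limit for members near 1 TPM.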
